A study of Homo sapiens with 4 samples.

Results

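The MYC, MAX and MXD network is a set of transcription factors that compete for a shared partner. The 10 genes described here are the MYC family members MYC and MYCL, their partner MAX, the antagonists MXD1, MXD3, MXD4, MNT and MGA, and the MYC-binding proteins MYCBP and MYCBP2. They were chosen by symbol, all 10 were found among the 20263 genes of the count table, and all 10 passed the filter on low counts that kept 14180 genes. The RNA came from the colorectal carcinoma line HCT116, grown from a human tumour, after 24 h with HJJ_3_5 or with DMSO, the solvent control. The series title calls HJJ_3_5 a derivative of piperine, the pungent compound of black pepper, but the concentration used is not stated in the labels. Each group held 2 libraries, and all 4 came from the same cell line with no genetic change named. The labels do not say that replicate libraries were grown separately, so the p-values reflect library-to-library spread that may be technical only.

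MYC proteins bind DNA as dimers with MAX at the E-box, whose core letters are CACGTG, and recruit activating complexes to genes of ribosome assembly, nucleotide synthesis and growth. The MXD proteins and MNT also pair with MAX, bind the same letters, and repress through the SIN3 corepressor and its histone deacetylases. MGA carries a MAX-binding domain and sits in a Polycomb complex named PRC1.6. In colorectal cancer MYC is best known as a target of WNT signalling.

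Totals were 29211120 and 36455176 counts in the HJJ_3_5 libraries and 31120459 and 29769568 in the DMSO libraries. Levels below are CPM, with each library's size corrected by its TMM factor, and fold changes are log2 values of HJJ_3_5 over DMSO with their standard error. A gene is called higher or lower at a Benjamini-Hochberg adjusted p below 0.05 over all genes in edgeR's quasi-likelihood test. At that threshold 17.4% of all tested genes were called, 9.17% higher and 8.27% lower. The groups did not overlap for 69% of tested genes. Library totals in place of TMM moved the median log2 fold change of all genes to 0.19, and the share of calls that were higher to 76.2%, against 52.6% with TMM. Calls were sensitive to single libraries: edgeR called 0 genes higher and 0 lower without HJJ_3_5 1, with 4303 genes at an unadjusted p below 0.05, and 0 and 4 without DMSO 2. It called 12 and 40 without DMSO 1, but 976 higher and 1716 lower without HJJ_3_5 2. The epithelial and colon markers summed to between 4937 and 5848 CPM with HJJ_3_5 and between 4338 and 4768 CPM with DMSO. KRT8, a keratin gene, was the highest of them, with a mean of 2345 CPM over all libraries, so it made up a large part of that sum. Of those 7 genes, LGALS4 was near 0. Of 9 markers of blood, vessel, stromal and liver cells, PTPRC and DCN had no count, and COL1A1 alone, at 37.1 CPM with HJJ_3_5 and 65.7 CPM with DMSO, made up most of their sum.

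Of the 10 network genes, MXD1 rose and MXD3 and MYCBP2 fell. The other 7 did not pass the test, among them MYC itself, whose level in the HJJ_3_5 libraries differed several-fold. The 3 calls are 30% of the members, against the 17.4% of all genes. HJJ_3_5 and DMSO libraries did not overlap for 8 of the 10, close to the 69% of all genes. The median log2 fold change of the 10 was 0.13, against 0.00 for all tested genes. These bulk values cannot tell fewer cells expressing a gene from less RNA per cell.

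**Figure D1:**
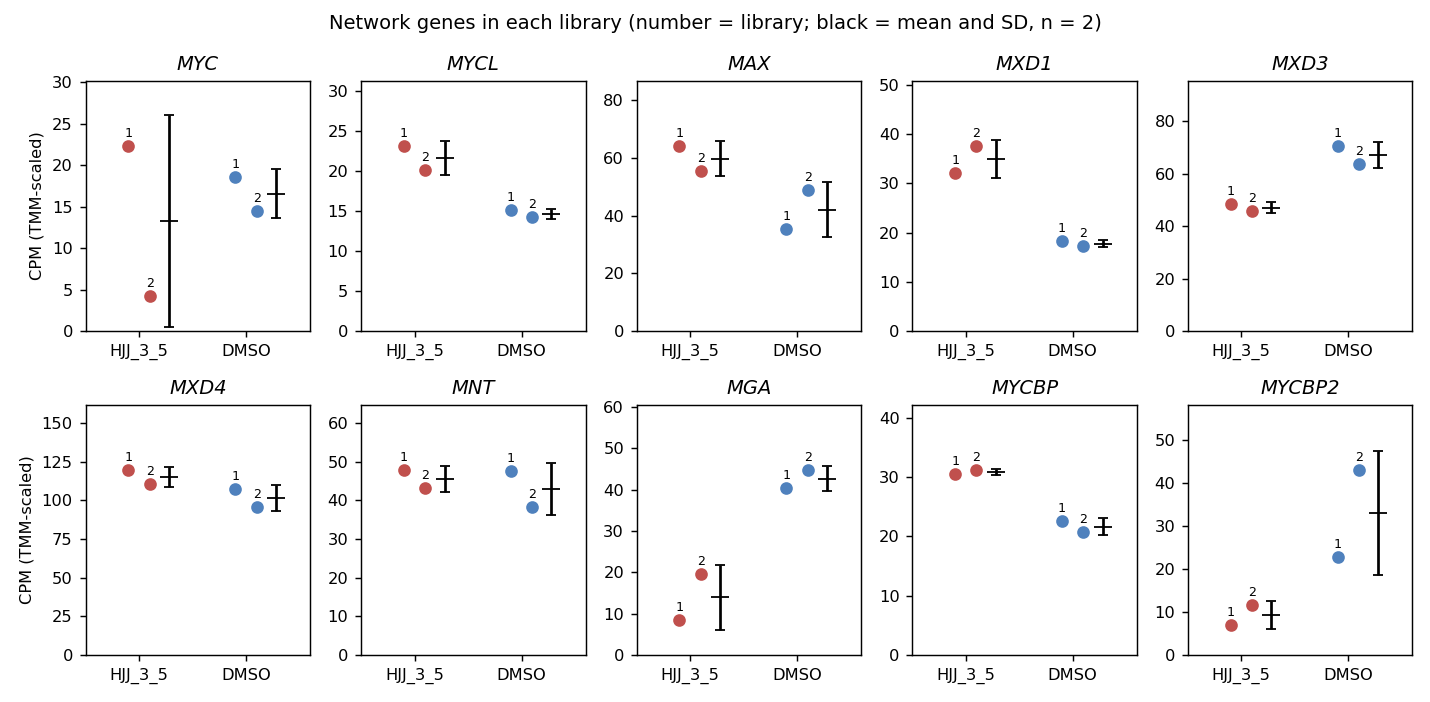
Level of each network gene in CPM (vertical axis, from 0) in the HJJ_3_5 and DMSO libraries. Points are single libraries marked 1 or 2, and black bars are the mean with its SD (n = 2). The MYC points of the HJJ_3_5 group, at 22.3 and 4.24 CPM, lie on either side of both DMSO points, while MXD1, MYCL and MYCBP are higher in both HJJ_3_5 libraries and MXD3, MGA and MYCBP2 lower.

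MYC, the oncogenic activator of the network (ENSG00000136997, chromosome 8, 127735434 to 127741434, plus strand, GRCh38), had 22.3 and 4.24 CPM in the HJJ_3_5 libraries and 18.6 and 14.5 CPM in the DMSO libraries. The groups overlapped, with library HJJ_3_5 1 above both DMSO libraries and library HJJ_3_5 2 below both. The log2 fold change was -0.32 ± 0.76 (edgeR adjusted p = 0.783). The counts behind these levels were 691 and 166 with HJJ_3_5, and 549 and 400 with DMSO. Exact 95% Poisson intervals, which cover counting error only, ran from 20.7 to 24.1 CPM in HJJ_3_5 1 and from 3.62 to 4.94 CPM in HJJ_3_5 2. The split is therefore wider than counting error. Only 0.405% of the 1974 genes within 0.5 log2 CPM of the level of MYC differed as much between the HJJ_3_5 libraries. Among all 14180 tested genes, MYC included, 14 stood at least as far above in HJJ_3_5 1, and 28 stood as far above in HJJ_3_5 2. The DMSO libraries differed by 1.28-fold, with 0.5 CPM added to each level.

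No direction can be given for MYC from these libraries. Without HJJ_3_5 2 its log2 fold change was 0.43 (adjusted p = 0.219), and without HJJ_3_5 1 it was -1.97 (adjusted p = 0.076). The MYC transcript has 53.9% GC. In the fifth of genes with GC from 53.2% to 59.3%, the median difference between the HJJ_3_5 libraries was -0.11 on the log2 scale, library 2 minus library 1. The part of composition in the split of MYC was not tested. With the trend of fold change with GC and length removed, as described for MGA and MYCBP2, MYC was at -0.53 ± 0.74 (adjusted p = 0.62).

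MYCL, the L-MYC paralog first known from lung cancer, had 23.1 and 20.1 CPM in the HJJ_3_5 libraries and 15.1 and 14.2 CPM in the DMSO libraries. Both HJJ_3_5 libraries were above both DMSO libraries. The log2 fold change was 0.56 ± 0.14, and the adjusted p of 0.0583 by edgeR missed the threshold, while DESeq2 (0.0306) and library totals (0.0295) placed it below. Per kilobase of transcript, MYCL was at 0.752 and 3.45 times the level of MYC in HJJ_3_5 1 and 2, and at 0.589 and 0.714 times in the DMSO libraries. The third paralog, MYCN, had no count in any library, which allows at most 3 counts in each, or 0.097 and 0.0766 CPM with HJJ_3_5 and 0.102 and 0.109 CPM with DMSO.

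MAX, the partner shared by activators and antagonists (ENSG00000125952, chromosome 14, 65006174 to 65102695, minus strand), had 64.1 and 55.4 CPM with HJJ_3_5 and 35.4 and 48.7 CPM with DMSO. Both HJJ_3_5 libraries were higher, but DMSO 1 and DMSO 2 differed by nearly as much as the groups did. The log2 fold change of 0.51 ± 0.20 did not pass the test (edgeR adjusted p = 0.133), and no alternative tried called it.

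The MXD antagonists did not move together. MXD1, known as a gene of differentiating cells (ENSG00000059728, chromosome 2, 69897688 to 69942945, plus strand), had 32.1 and 37.6 CPM with HJJ_3_5 and 18.3 and 17.2 CPM with DMSO. Both HJJ_3_5 libraries lay well above both DMSO libraries, and MXD1 rose by 0.97 ± 0.14 on the log2 scale, or 1.96-fold (edgeR adjusted p = 0.0293). Its transcript has 42.7% GC and 5587 bases, and with the trend of fold change with GC and length removed the rise was larger, at 1.36 ± 0.13 (adjusted p = 0.0157). The adjusted p was above 0.05 without HJJ_3_5 1 (0.076), DMSO 1 (0.0915) or DMSO 2 (0.129), with log2 fold changes from 0.93 to 1.08. MXD1 shares 237 exon bases on its strand with SNRNP27, which was at 23.8 and 23.0 CPM with HJJ_3_5 and 26.5 and 31.8 CPM with DMSO and was not called.

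MXD3, the family member linked to cells in S phase (ENSG00000213347, chromosome 5, 177301461 to 177312757, minus strand), had 48.6 and 45.7 CPM with HJJ_3_5 and 70.6 and 63.7 CPM with DMSO. All HJJ_3_5 values lay below the DMSO values, and the gene fell by 0.51 ± 0.12 on the log2 scale (edgeR adjusted p = 0.0497). That p is at the edge of the threshold, and the call was lost with library totals (-0.33, adjusted p = 0.112), with no filter (adjusted p = 0.0523) and when any single library was left out (adjusted p from 0.0944 to 0.242). After removal of the GC and length trend the decrease was -0.71 ± 0.09 (adjusted p = 0.0178). MXD3 shares 926 exon bases with RAB24 on its strand and 1158 with PRELID1 on the other, so reads could be split between them. Neither neighbour was called: RAB24 was at 14.1 and 11.6 CPM with HJJ_3_5 and 17.2 and 15.8 CPM with DMSO, and PRELID1 at 75.0 and 65.9 CPM with HJJ_3_5 and 63.6 and 55.9 CPM with DMSO.

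MXD4, an antagonist of the same family, had 120.0 and 110.6 CPM with HJJ_3_5 and 107.6 and 95.5 CPM with DMSO. The gap between the groups was smaller than that between the DMSO libraries, and the log2 fold change was 0.18 ± 0.11 (edgeR adjusted p = 0.292), turning to -0.04 after removal of the GC and length trend. The fourth family member, MXI1 (also called MXD2), is not among the 10 and is described as another gene of the network. It had 106.6 and 119.2 CPM with HJJ_3_5 and 212.2 and 202.5 CPM with DMSO, with no overlap. It fell by 0.88 ± 0.11 on the log2 scale (edgeR adjusted p = 0.0273, and -0.64 with adjusted p = 0.0252 after trend removal). MXI1 is known as a hypoxia-inducible gene. Per kilobase of transcript it was the most abundant MXD gene in every library.

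MNT, a broadly expressed MAX partner that opposes MYC (ENSG00000070444, chromosome 17, 2384060 to 2401118, minus strand), had 48.0 and 43.1 CPM with HJJ_3_5 and 47.7 and 38.3 CPM with DMSO. The groups overlapped, and the log2 fold change was 0.08 ± 0.16 (edgeR adjusted p = 0.726). It was -0.05 with the GC and length trend removed and -0.07 without DMSO 2.

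MGA, the large scaffold of PRC1.6 (ENSG00000174197, chromosome 15, 41621224 to 41773081, plus strand), had 8.34 and 19.5 CPM with HJJ_3_5 and 40.5 and 44.9 CPM with DMSO. Both HJJ_3_5 libraries were below the DMSO libraries by a wide gap, yet they differed from each other by 2.27-fold (with 0.5 CPM added to each level), a spread reached by 1.49% of genes of like level. The log2 fold change of -1.61 ± 0.42 did not pass (edgeR adjusted p = 0.0619). DESeq2 called it (adjusted p = 0.00101), as did limma-voom (0.0485). Without HJJ_3_5 2 it was -2.36 and called (adjusted p = 0.0335), and without HJJ_3_5 1 it was -1.13 (adjusted p = 0.076).

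MYCBP2, a very large ubiquitin ligase named for binding MYC and best known from neurons (ENSG00000005810, chromosome 13, 77044655 to 77327050, minus strand), had 6.92 and 11.6 CPM with HJJ_3_5 and 22.8 and 43.1 CPM with DMSO. No library of the groups overlapped, although the libraries differed by 1.64-fold with HJJ_3_5 and by 1.87-fold with DMSO (0.5 CPM added to each level). MYCBP2 fell by 1.82 on the log2 scale, with a standard error of 0.42 (edgeR adjusted p = 0.0497). The call was lost with limma-voom (adjusted p = 0.0529), without HJJ_3_5 1 (-1.50, adjusted p = 0.125), without DMSO 1 (-2.21, adjusted p = 0.063) and without DMSO 2 (-1.30, adjusted p = 0.141).

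MGA and MYCBP2 have the longest transcripts of the 10, at 14439 and 14736 bases, and both are low in GC, at 42.0% and 43.6%. Over all tested genes the median log2 fold change was -0.30 in the fifth with the longest transcripts, against 0.10 in the fifth with the shortest, and -0.23 in the fifth with the lowest GC, against 0.24 in the highest. With that trend removed, MGA was at -0.84 ± 0.28 (edgeR adjusted p = 0.0934) and MYCBP2 at -1.01 ± 0.28 (adjusted p = 0.0621), so the size of both shrank and MYCBP2 was not called in that fit. Whether the trend accounts for the rest of these decreases was not tested.

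MYCBP, a small MYC-binding protein, had 30.5 and 31.3 CPM with HJJ_3_5 and 22.6 and 20.7 CPM with DMSO. The HJJ_3_5 libraries were close to each other and above both DMSO libraries. The log2 fold change of 0.51 ± 0.12 narrowly missed the threshold (edgeR adjusted p = 0.0527), and it passed with DESeq2 (0.0185), library totals (0.028) and removal of the GC and length trend (0.71, adjusted p = 0.034). MYCBP shares 977 exon bases with a protein-coding gene on its strand, ENSG00000274944, whose level was at most 0.128 CPM in any library.

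**Figure D2:**
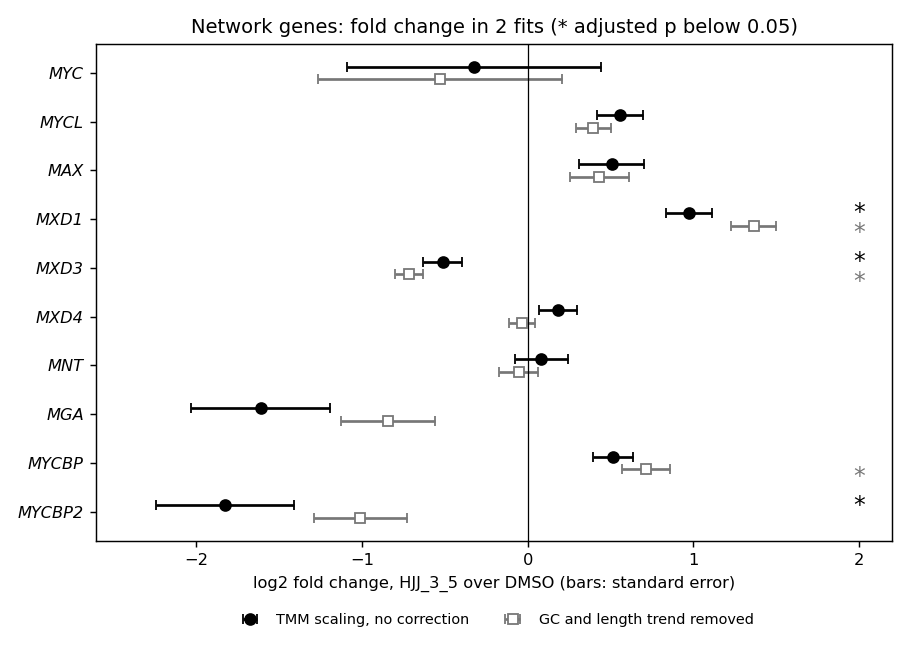
Log2 fold change of each network gene, HJJ_3_5 over DMSO (horizontal axis), with standard errors as bars, from the fit with TMM scaling (filled circles) and with the GC and length trend removed (open squares). Stars mark an adjusted p below 0.05. MGA and MYCBP2 move toward 0 with the trend removed, from -1.61 to -0.84 and from -1.82 to -1.01, and MXD1 moves away from it, from 0.97 to 1.36.

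**Figure D3:**
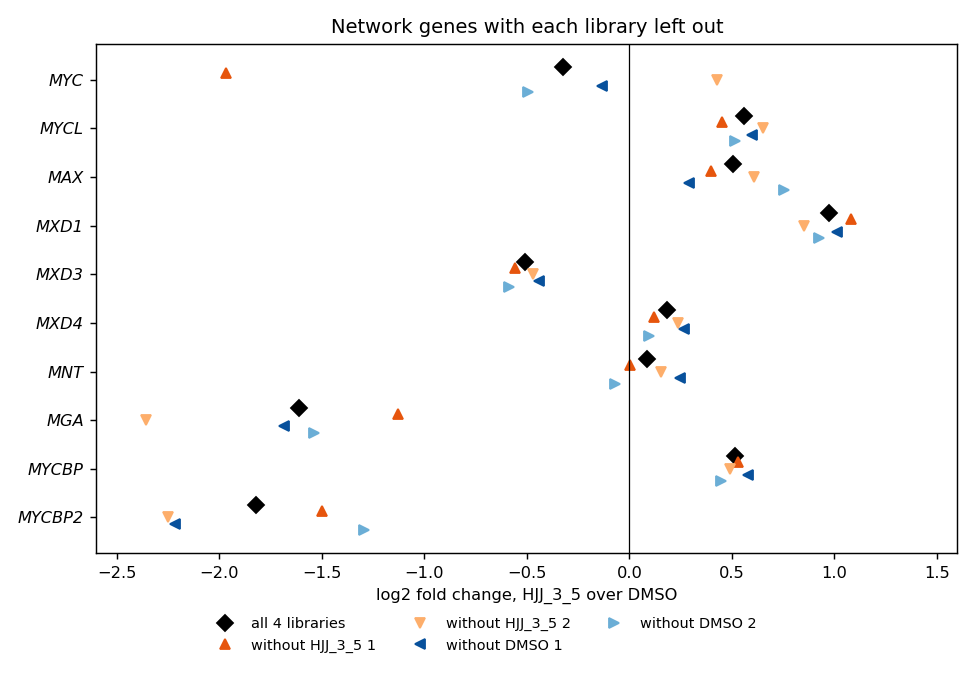
Log2 fold change of each network gene, HJJ_3_5 over DMSO (horizontal axis), with all 4 libraries (black diamonds) and with each library left out. MYC spans -1.97 to 0.43 depending on which HJJ_3_5 library is left out, while MXD1 stays between 0.85 and 1.08 and MXD3 between -0.59 and -0.44.

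Levels were compared between genes per kilobase of the longest protein-coding transcript. With HJJ_3_5 the order was MXD4 (28.4 ± 1.6 CPM per kilobase, SD, n = 2), MXD3 (20.8 ± 0.9), MAX (18.9 ± 2.0), MYCBP (10.97 ± 0.19), MNT (9.12 ± 0.69), MYCL (6.64 ± 0.65), MXD1 (6.24 ± 0.69), MYC (5.62 ± 5.41), MGA (0.966 ± 0.549) and MYCBP2 (0.63 ± 0.23). With DMSO it was MXD3 (29.6 ± 2.1 CPM per kilobase), MXD4 (25.04 ± 2.10), MAX (13.3 ± 3.0), MNT (8.60 ± 1.33), MYCBP (7.69 ± 0.49), MYC (6.999 ± 1.239), MYCL (4.50 ± 0.19), MXD1 (3.18 ± 0.13), MGA (2.96 ± 0.21) and MYCBP2 (2.23 ± 0.98). Neighbours whose means differed by less than the larger SD of the pair were MXD3 and MAX, MYCL, MXD1 and MYC, MYC and MGA, and MGA and MYCBP2 with HJJ_3_5, and MNT, MYCBP and MYC, and MGA and MYCBP2 with DMSO. By the length of all exons together, MXD4 (14.4 CPM per kilobase) stood above MXD3 (13.03) with DMSO as well, so the order of these neighbours depends on the length used.

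The summed level of the MXD genes per kilobase was above that of the MYC family in all 4 libraries. Summed over MXD1, MXI1, MXD3 and MXD4 they reached 87.5 and 88.5 CPM per kilobase with HJJ_3_5 and 122 and 113 with DMSO. This sum was lower in both HJJ_3_5 libraries. Without MXI1 it was 56.7 and 54.1 with HJJ_3_5 and 60.9 and 54.7 with DMSO, where the groups were nearly level. MYC and MYCL together were at 16.5 and 7.97 CPM per kilobase with HJJ_3_5 and 12.5 and 10.5 with DMSO, so the ratio of the 4 MXD genes to them was 5.29 and 11.1 with HJJ_3_5 and 9.76 and 10.8 with DMSO. The makeup of the MXD group differed as well: MXD4 was at 5.15 and 4.05 times the level of MXD1 with HJJ_3_5, against 8.10 and 7.63 times with DMSO. A 2 against 2 comparison of such a single value cannot go below an exact two-sided permutation p of 0.333, so no test is given.

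**Figure D4:**
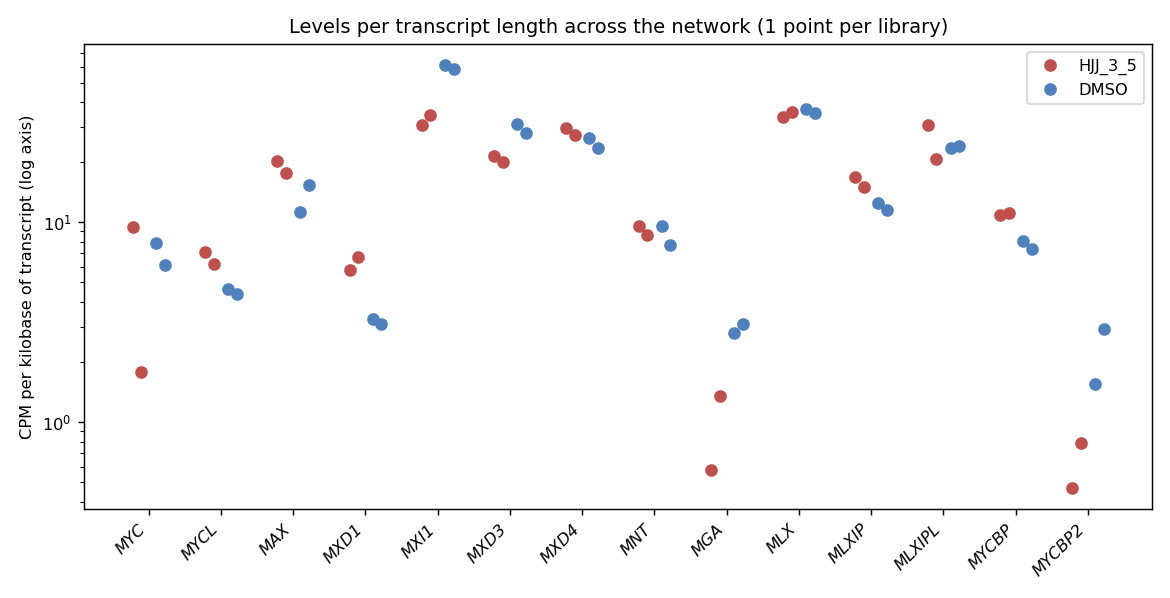
Level of the network genes in CPM per kilobase of transcript (log axis), 1 point per library, HJJ_3_5 left of DMSO for each gene. MXI1 is the highest MXD gene in every library and is lower with HJJ_3_5, MYCBP2 and MGA are the lowest genes with HJJ_3_5, and the HJJ_3_5 points of MYC lie far apart, at 9.44 and 1.79.

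The remaining genes of the wider network act with MLX in place of MAX. MLX itself had 87.1 and 92.6 CPM with HJJ_3_5 and 95.8 and 91.0 CPM with DMSO, a log2 fold change of -0.06 ± 0.10 (edgeR adjusted p = 0.714). MLXIP, which encodes the glucose sensor MondoA, was at 0.41 ± 0.11 (adjusted p = 0.0702) and passed after removal of the GC and length trend (0.51, adjusted p = 0.0275). MLXIPL, which encodes ChREBP, had 100.2 and 67.8 CPM with HJJ_3_5, on either side of 77.0 and 79.3 CPM with DMSO.

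By the distance between centred log2 CPM profiles over the 4 libraries, the gene most like MYC among 6603 genes averaging 5 or more in log2 CPM was ASB1, at a distance of 0.37. Next were GNA12 (0.41), UBE2Z (0.50), CDC42SE1 (0.58) and POLE3 (0.63). ASB1 had 81.4 and 19.7 CPM with HJJ_3_5 and 77.2 and 74.4 CPM with DMSO, and UBE2Z had 298.7 and 82.9 CPM with HJJ_3_5 and 227.9 and 227.6 CPM with DMSO. These genes were picked for their likeness to MYC, so their low value in HJJ_3_5 2 follows from that choice. It shows only that such genes exist. Genes nearest to other members lay at smaller distances: RNF126 for MYCL (0.01), CCDC86 for MXD1 (0.03), RAC2 for MXD3 (0.02), RAB11B for MXD4 (0.02), NBEAL2 for MNT (0.04), SRP19 for MYCBP (0.02) and LRBA for MYCBP2 (0.08). For MGA it was SLC39A10, at 0.25. With 4 libraries in 2 groups many genes share a profile by the group difference alone.

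Since network proteins bind CACGTG, the stretch from 250 bases before to 50 after each start site was searched for these letters and for the variant CACGCG, on both strands (RefSeq, GRCh38.p14). The table held 13 promoters of 9 members, and MYC had no entry. The letters CACGTG were found in 2 of the 13 (15.4%), those of MXD4 and MNT, against 7.26% of all 35116 promoters and 8.36% of the 21552 promoters of genes in the count table. The variant was found in 2 of the 13 as well (15.4%), that of MXD3 and an alternative start of MGA, against 11.4% of all promoters and 14.4% of those of genes in the count table. The promoters below are those of the called genes MXD1 and MXD3 and of the uncalled genes MXD4 and MNT, so that the sequences with and without the motif can be seen beside each other. They are MXD1 at chr2:69914859-69915158 on the plus strand, and on the minus strand MXD3 at chr5:177312703-177313002, MXD4 at chr4:2262060-2262359 and MNT at chr17:2401011-2401310. Capitals mark CACGTG in MXD4 and MNT, and CGCGTG, the reverse complement of CACGCG, in MXD3.
MXD1: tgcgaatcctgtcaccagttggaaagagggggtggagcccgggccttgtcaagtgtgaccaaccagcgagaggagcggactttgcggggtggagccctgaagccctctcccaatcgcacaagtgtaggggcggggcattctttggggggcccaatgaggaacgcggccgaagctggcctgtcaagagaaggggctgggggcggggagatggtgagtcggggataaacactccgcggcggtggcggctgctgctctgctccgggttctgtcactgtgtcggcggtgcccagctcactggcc
MXD3: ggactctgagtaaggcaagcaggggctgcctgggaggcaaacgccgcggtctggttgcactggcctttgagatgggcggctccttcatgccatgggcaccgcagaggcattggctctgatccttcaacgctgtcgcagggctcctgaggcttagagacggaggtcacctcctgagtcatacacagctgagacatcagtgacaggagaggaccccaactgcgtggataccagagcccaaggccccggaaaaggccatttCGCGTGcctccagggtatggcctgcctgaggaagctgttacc
MXD4: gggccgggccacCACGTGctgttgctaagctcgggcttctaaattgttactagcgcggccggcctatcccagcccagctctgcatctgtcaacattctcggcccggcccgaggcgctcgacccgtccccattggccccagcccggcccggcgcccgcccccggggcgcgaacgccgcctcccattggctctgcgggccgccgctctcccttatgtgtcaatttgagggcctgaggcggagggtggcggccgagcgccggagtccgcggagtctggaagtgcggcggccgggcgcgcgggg
MNT: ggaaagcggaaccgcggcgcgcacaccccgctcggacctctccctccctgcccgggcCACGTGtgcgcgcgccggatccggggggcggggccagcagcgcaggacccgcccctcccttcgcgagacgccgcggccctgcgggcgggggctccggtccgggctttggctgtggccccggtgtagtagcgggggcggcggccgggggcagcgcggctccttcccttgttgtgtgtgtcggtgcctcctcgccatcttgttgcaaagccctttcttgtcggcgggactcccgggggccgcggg
In these promoters the first base of CACGTG lies 238 bases before the start site of MXD4 and 193 before that of MNT. Neither gene was called, and MXD1, which rose, has neither motif in this window. A match describes the letters only and does not show binding.

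Among genes that MYC is known to induce, most of those that passed the test were higher. The list of 65 such genes, mostly for ribosome assembly, nucleotide synthesis and replication, had 64 tested members. Of these, 27 rose and 2 fell, which is 45.3% of the list, against 17.4% of all genes, and the median log2 fold change was 0.51, against 0.00. The median lay between 0.39 and 0.57 with each library left out in turn, was 0.41 with the GC and length trend removed, and was 0.70 with library totals (34 higher, 1 lower), where the median of all genes was 0.19. Of the list, 22 genes overlap the exons of another protein-coding gene. In the 42 tested ones left 16 were higher and 2 lower (42.9% called), and their median was 0.37. The share called among all genes without such overlap was not computed. The higher calls of the list were not kept without HJJ_3_5 1, DMSO 1 or DMSO 2, where few genes were called at all. With all 4 libraries, 35 genes of the list were higher and 5 lower at an unadjusted p below 0.05 in edgeR. Of all 14180 tested genes, 2813 were higher and 2765 lower by that measure. DESeq2 called 31 higher and 4 lower in the list, and 1837 higher and 2152 lower among all genes. Many of the genes are also nucleolar or replication genes, so the list is not independent of those classes. It was also chosen with earlier results of these data known, as were the lists below. The shares called therefore describe the listed genes and are not a test of MYC activity.

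The importin IPO4 had 45.6 and 39.8 CPM with HJJ_3_5 and 11.2 and 8.80 CPM with DMSO, a log2 fold change of 2.09 ± 0.18 (edgeR adjusted p = 0.0244). It shares 3470 exon bases with another gene on its strand, so its counts are uncertain. The nucleolar gene MYBBP1A rose by 1.38 and the replicative helicase subunit MCM5 by 1.22. Both decreases of the list were in glycolysis: hexokinase HK2 fell by 2.10, and LDHA, lactate dehydrogenase A, fell by 0.80. LDHA was chosen after its value was seen. Between libraries of a group, the median difference of library 2 minus library 1 over this list was -0.09 on the log2 scale with HJJ_3_5 and -0.02 with DMSO, against 0.00 and 0.01 for all genes.

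Genes that MYC is known to repress did not move in 1 direction. Of 13 tested, 1 rose and 3 fell (30.8% called, against 17.4% of all genes), with a median of -0.16. The cell cycle inhibitor CDKN1C had 25.1 and 19.3 CPM with HJJ_3_5 and 73.5 and 69.8 CPM with DMSO, a decrease of -1.69 ± 0.17 (edgeR adjusted p = 0.0273). The stress gene NDRG1 fell by 1.59. The matrix glycoprotein gene THBS1 fell by 0.92, but had an adjusted p of 0.0691 once the GC and length trend was removed. The differentiation factor CEBPA rose by 1.45 (edgeR adjusted p = 0.0374), and its call ended with the trend removed (adjusted p = 0.052).

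The antagonists act through corepressor complexes. Of 19 SIN3 corepressor genes, 1 was higher and 2 lower (15.8% called, against 17.4% of all genes, median -0.26), a share near that of all genes. The scaffold SIN3A had 64.5 and 53.1 CPM with HJJ_3_5 and 87.9 and 104.4 CPM with DMSO and fell by 0.71 (edgeR adjusted p = 0.0464), but was not called after removal of the GC and length trend (-0.38, adjusted p = 0.179). The histone demethylase KDM5A fell by 1.93, with levels split in both groups, and SAP30L rose by 0.59. Of 14 genes that act with MGA in PRC1.6, 3 were higher and 1 lower (28.6% called, against 17.4% of all genes, median 0.30). L3MBTL2, a subunit specific to that complex, had 42.8 and 41.0 CPM with HJJ_3_5 and 19.8 and 19.0 CPM with DMSO and rose by 1.11 ± 0.12 (edgeR adjusted p = 0.0273). The E2F partner TFDP1 rose by 0.70 and WDR5 by 0.90. RYBP fell by 0.60, a call lost with the trend removed (-0.08, adjusted p = 0.719). The level of MGA itself, 8.34 and 19.5 CPM with HJJ_3_5 and 40.5 and 44.9 CPM with DMSO, lay in the opposite direction from L3MBTL2.

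Among 21 cofactors that MYC recruits, 3 were higher and 2 lower (23.8% called, against 17.4% of all genes, median 0.03). The AAA+ helicase gene RUVBL1 had 137.7 and 128.3 CPM with HJJ_3_5 and 82.3 and 78.8 CPM with DMSO and rose by 0.72 ± 0.10 (edgeR adjusted p = 0.0287). WDR5, which contacts MYC directly and is in both lists, rose as above. The acetyltransferase scaffold TRRAP fell by 0.70 and the nucleosome remodeller BPTF by 1.33. With the GC and length trend removed TRRAP was at -0.30 and no longer called (adjusted p = 0.0692), and BPTF was at -0.66 and called.

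Among 23 genes of MYC protein turnover, 0 were higher and 4 lower (17.4% called, as for all genes, median -0.15). In the same list 4 genes were higher and 7 lower at an unadjusted p below 0.05 in edgeR. Of all 14180 tested genes, 2813 were higher and 2765 lower by that measure. DESeq2 called 0 higher and 6 lower in the list, and 1837 higher and 2152 lower among all genes. The ubiquitin ligase HUWE1 had 254.6 and 214.7 CPM with HJJ_3_5 and 403.5 and 404.8 CPM with DMSO and fell by 0.78 on the log2 scale. The groups did not overlap. The deubiquitinase USP28 fell by 0.78 and the kinase GSK3B, which marks MYC for degradation, by 0.64. HUWE1 and GSK3B were not called with the GC and length trend removed (-0.24 and -0.11). With library totals 5 genes of this list were higher and 2 lower, against 2614 and 818 of all 14180 tested genes. The list median was then 0.03, against 0.19 for all genes. The sign of the list median thus depends on the scaling, but it was below that of all genes under both scalings.

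Among 17 tested regulators of the MYC gene or mRNA, 3 were higher and 2 lower (29.4% called, against 17.4% of all genes, median -0.13). With library totals the median was 0.06, against 0.19 for all genes. E2F1 had 42.2 and 35.8 CPM with HJJ_3_5 and 16.5 and 13.8 CPM with DMSO, and TCF7, a factor of the WNT pathway, had 38.1 and 38.4 CPM with HJJ_3_5 and 22.1 and 23.0 CPM with DMSO. They rose by 1.36 and 0.76. STAT3 fell by 0.64 and the RNA-binding protein gene CELF1 by 0.63, the second not called with the trend removed (-0.26, adjusted p = 0.24). Of 7 partners of MYCBP and MYCBP2, the mitochondrial anchor AKAP1 rose by 0.59 and the other 6 did not pass (14.3% called, against 17.4% of all genes). TCF7, CELF1, L3MBTL2, KDM5A, RUVBL1, TRRAP, MYBBP1A and THBS1 share exon bases with a gene on the other strand, and whether counting used strand is not given.

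**Figure D5:**
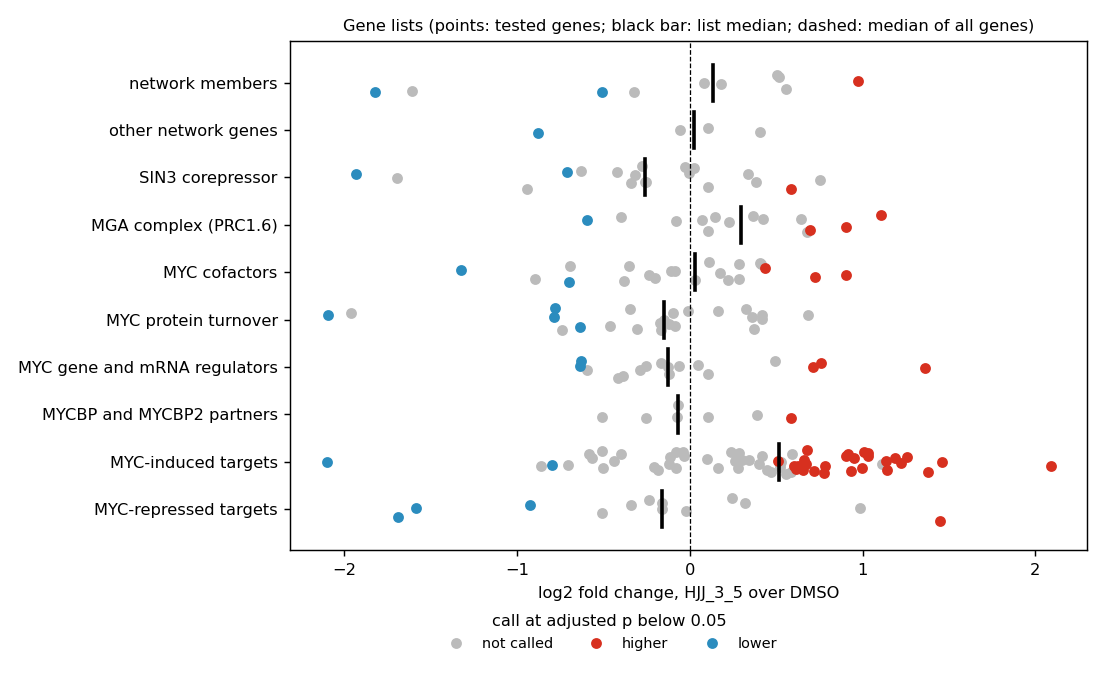
Log2 fold change, HJJ_3_5 over DMSO (horizontal axis), of every tested gene in the network and in each related list, coloured by its call. Black bars are list medians and the dashed line is the median of all genes, 0.00. MYC-induced targets have a median of 0.51 with 27 of 64 higher, and the other lists have medians between -0.26 and 0.30.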

How the data were processed

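RNA-seq counts from HCT116 cells treated for 24 h were compared between 2 HJJ_3_5 and 2 DMSO libraries, grouped by the labels. The authors deposited raw read counts per gene, with no normalization. No label or header names the aligner, counter, annotation or strand setting. Mouse builds (GRCm38, mm10) stand in the submitters' processing notes although all identifiers are human, so the true build is unknown. Symbols were matched for 20224 of 20263 rows, and positions, transcript length and GC come from GENCODE 29 on GRCh38, matched by identifier.

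Genes were kept with filterByExpr (minimum count 10, minimum total 15), scaled by TMM and tested with edgeR 4.0.16 in R 4.3.3 (quasi-likelihood, 2 residual degrees of freedom, two-sided, no covariate, Benjamini-Hochberg). A standard error is the fold change divided by the square root of F. The spread is that of a biological coefficient of variation of 0.193. The trend with GC and length was fitted per library by natural splines (4 degrees of freedom, genes of log2 CPM at least 3) and used as an offset. The fits were tested on simulated counts. The main fit called 40% of simulated 2-fold changes and 96% of 4-fold changes in the right direction, with 5 calls among unchanged genes. A change of 2-fold or less can thus be missed. The simulation changed 100 genes by each fold. It used the trend of spread with level, with no spread particular to a gene, and no trend with GC or length. Its rates may therefore not hold for these libraries. The alternatives were other scalings and filters, DESeq2 1.42.0, limma-voom 3.58.1, a stricter threshold, a replicate block, trend removal and leaving out each library. Removal of genes that share exon bases was added after seeing the data.

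The members and gene lists were chosen with earlier results of these data known. The text names all members, 5 other network genes, up to 4 called genes of lowest p in each list, and the genes closest in profile to a member; a few of these are not reported here. Counting intervals are exact two-sided Poisson limits at 95%, apart from the ceiling of 3 counts for MYCN.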

Additional observations from a re-analysis of the deposited data

How the results depend on the processing

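MYCL, MAX, MXD1, MXD3, MGA, MYCBP and MYCBP2 kept their direction under all 14 alternatives fixed at the start. MYC, MXD4 and MNT did not, and none of these was called in any. The alternatives moved the calls as follows, and the cause was not tested beyond what each changes. With library totals 2614 genes were higher, 3 members were higher (log2 fold changes of 0.74 for MYCL and 0.70 for MYCBP) and 1 lower, MXD3 was at -0.33, and 1 MYC-induced gene was lower. With no filter on low counts 1 member was lower and MXD3 was at -0.52, its adjusted p just above the threshold. DESeq2 called 1837 genes higher and 2152 lower, 3 members higher (MYCL 0.55, MYCBP 0.51), MGA lower at -1.62, and 4 MYC-induced genes lower. With limma-voom MGA was called at -1.71 and MYCBP2, at -1.78, was not. At an adjusted p below 0.01 edgeR called 0 genes in either direction, so MXD1 (0.97), MXD3 (-0.51) and MYCBP2 (-1.82), and 0 MYC-induced genes, did not pass; 5578 genes had an unadjusted p below 0.05, and DESeq2 called 2625 genes at that threshold, 4 of them members.

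The numbers 1 and 2 of the libraries are not said to mark shared cultures. Deviations of same-numbered libraries correlated across genes with Pearson's r = 0.25. With a replicate block 2077 genes were higher and 2540 lower, 3 members were higher (MYCL 0.56, MYCBP 0.51), MGA was called at -1.73, and 7 MYC-induced genes were lower. With the GC and length trend removed 2 members were higher (MYCBP at 0.71) and 1 lower, 1924 genes were higher and 1646 lower, MXD4 was at -0.036, MNT at -0.054 and MYCBP2 at -1.01. With that removal and the replicate block 2558 genes were higher and 2398 lower, 3 members were higher (MYCL 0.40, MYCBP 0.72), MYCBP2 was called lower at -0.99 (edgeR adjusted p = 0.0152), 8 MYC-induced genes were lower, MXD4 was at -0.035 and MNT at -0.048. Without genes that overlap another coding gene, chosen after seeing the data, 0 members were higher and 0 lower, since the called members were among the genes removed, and 16 MYC-induced genes were higher.

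Leaving out 1 library leaves 1 sample in a group, assumed to vary like the others. The counts then ranged from 0 to 976 genes higher and from 0 to 1716 lower, from 0 to 1 members higher and from 0 to 2 lower, and from 0 to 20 MYC-induced genes higher and from 0 to 5 lower. Log2 fold changes ranged from -1.97 to 0.43 for MYC, from 0.85 to 1.08 for MXD1, from -0.59 to -0.44 for MXD3, from -0.069 to 0.25 for MNT, from -2.36 to -1.13 for MGA and from -2.25 to -1.30 for MYCBP2.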
